A study of Homo sapiens with 4 samples.

Results

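The 10 Mb of chromosome 20 around ZNF217, chr20:50000001-60000000 of the hg38 build, formed one of the densest stretches of ATAC-seq peaks in SKBR3 cells. Peaks of 4 lists were merged into sites wherever they overlapped by at least 1 bp, and 4599 of the 307691 sites so formed lay in this block. The block was selected on its peak density in these same lists, so its density is given as a description, without a test. No site crossed either limit of the block.

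SKBR3 is an established HER2-positive human breast cancer cell line. ATAC-seq uses the Tn5 transposase to insert adaptors into accessible DNA. The series held 2 untreated libraries and 2 libraries treated with TWEAK, a cytokine of the TNF family, at 10 ng/ml over 48 h and renewed after 24 h. The growth protocol attached to all 4 libraries has 8 h of starvation before TWEAK and does not describe the untreated cells separately. The methods describe replicates of ATAC-seq in cell lines as biological, and p-values here measure the spread between these 4 libraries.

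The 20q13 region is among the chromosome segments most often gained in breast cancer. ZNF217 encodes a zinc finger transcription factor that is a candidate driver of that gain. The region also holds the mitotic kinase gene AURKA, the vitamin D 24-hydroxylase gene CYP24A1 and TFAP2C, which encodes a transcription factor of mammary epithelium. TWEAK binds the receptor Fn14 and activates NF-kB, a factor family that often binds beside AP-1 in induced enhancers. The lists hold no measure of DNA copy number, so copies of the block and accessibility per copy cannot be told apart.

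To show what lies under the peaks, sequences of the hg38 plus strand around the centre of the best-ranked peak are printed for 3 sites, and the RefSeq promoter of ZNF217 (build GRCh38.p14) is printed on the strand of the gene. Capitals mark matches, on either strand, to AP-1 (TGACTCA or TGAGTCA), to NF-kB (its 10-letter consensus) and to TFAP2 (GCCNNNGGC). The CDH26 site, chr20:59995773-59995973, is shown because it had a peak in both TWEAK lists only and held both an AP-1 and an NF-kB match, as did 2 other gained sites, and because it lies at a RefSeq start of CDH26. It was picked after its values were seen. The BCAS1-CYP24A1 site, chr20:54123717-54123917, and the PFDN4 site, chr20:54267534-54267734, were the strongest distal sites found in all 4 lists. The ZNF217 promoter, chr20:53593790-53594089, is on the minus strand, and matches of different motifs may overlap. NF-kB matched 11 of the 63 RefSeq promoter windows of the block (17.5%) and 11.3% of all such windows. TFAP2 matched 30.2% and 23.2%, and AP-1 matched 3.17% and 4.95%. The median GC content of these windows was 68% in the block and 58.7% over all.
CDH26 gained site: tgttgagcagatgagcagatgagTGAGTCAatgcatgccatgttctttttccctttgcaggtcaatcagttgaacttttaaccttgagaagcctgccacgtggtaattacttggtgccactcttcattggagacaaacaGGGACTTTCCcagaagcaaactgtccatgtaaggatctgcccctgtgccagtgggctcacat
BCAS1-CYP24A1 shared site: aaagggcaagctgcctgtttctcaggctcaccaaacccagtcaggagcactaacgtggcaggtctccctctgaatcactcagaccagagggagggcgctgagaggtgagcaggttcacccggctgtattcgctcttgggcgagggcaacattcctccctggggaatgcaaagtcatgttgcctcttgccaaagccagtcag
PFDN4 shared site: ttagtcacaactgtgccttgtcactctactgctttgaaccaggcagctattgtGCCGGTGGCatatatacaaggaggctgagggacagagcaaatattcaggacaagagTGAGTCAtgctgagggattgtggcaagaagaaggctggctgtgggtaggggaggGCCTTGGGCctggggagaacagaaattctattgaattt
ZNF217 promoter: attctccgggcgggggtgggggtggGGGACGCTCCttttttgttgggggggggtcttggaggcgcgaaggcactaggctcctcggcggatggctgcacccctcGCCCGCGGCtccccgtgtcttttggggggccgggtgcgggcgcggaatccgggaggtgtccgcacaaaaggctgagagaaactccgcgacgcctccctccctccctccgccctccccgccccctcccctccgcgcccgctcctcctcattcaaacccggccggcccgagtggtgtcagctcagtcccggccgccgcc

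The first question was how peaks were spread over the block. Untreated replicates 1 and 2 had 3092 and 3418 peaks there. TWEAK replicates 1 and 2 had 3002 and 2554. Peaks covered 15.5%, 17.1%, 15.04% and 12.8% of the block in the same order, against 3.23% to 3.78% of chromosomes 1 to 22 and X. The median distance between neighbouring peaks was 1590 to 1872 bp in the block and 3154 to 3952.5 bp in the whole lists. In windows of 200 kb the block held a median of 57.5, 68, 58.5 and 46.5 peaks, where the median over genome windows with any peak was 9, 10, 10 and 9. The block thus stood at 6.39, 6.80, 5.85 and 5.17 times the genome median. Among 309 tiles of 10 Mb it ranked 4 by its share of peaks, after 3 tiles of chromosome 8.

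**Figure D1:**
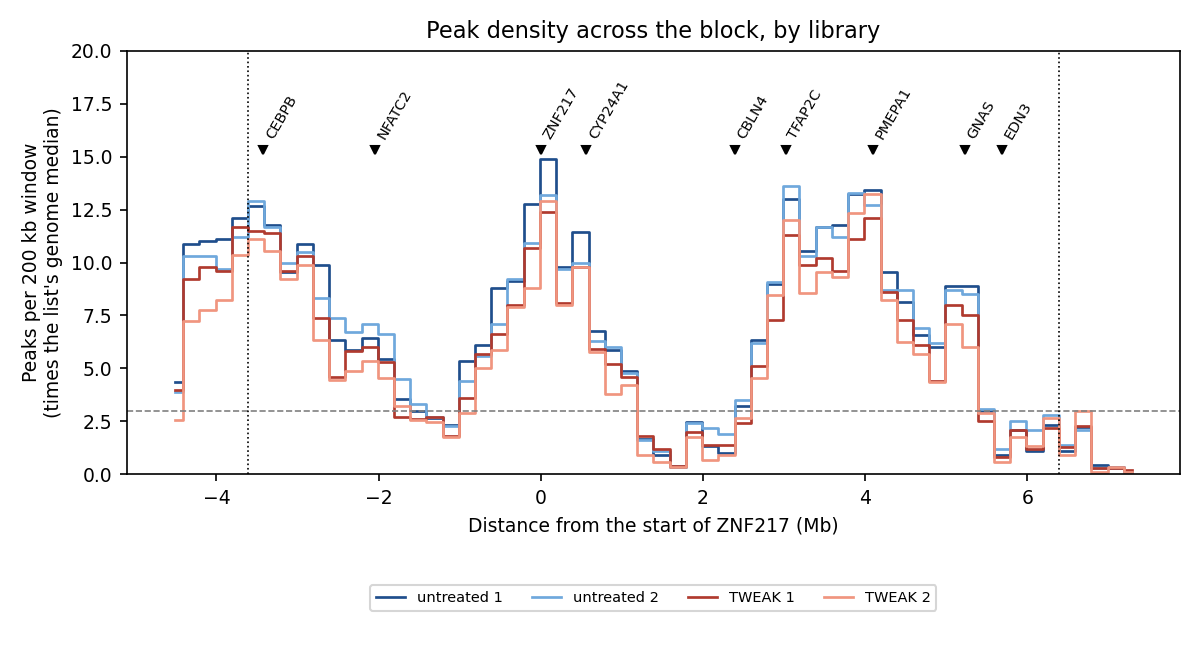
Peaks per 200 kb window, divided by the median window of the same list (y axis), against the distance of the window centre from the start of ZNF217 in Mb (x axis), for the 4 libraries. Dotted vertical lines mark the limits of the block, the dashed line marks 3 times the genome median, and triangles mark gene starts. The 4 libraries trace the same 3 humps, with deep gaps on the right of CYP24A1 and of GNAS.

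The density was uneven, and all 4 libraries shared its shape. Window counts ranged from 3 to 136. Across the 50 windows the Pearson correlation between any pair of lists was 0.977 to 0.989, a description of windows that share their sequence and mappability. The window from 53.6 to 53.8 Mb, around the start of ZNF217, was the densest of the block by its mean over the lists, with 134, 132, 124 and 116 peaks in untreated 1, untreated 2, TWEAK 1 and TWEAK 2. Other windows were denser in untreated 2 and in TWEAK 2. Next by the mean was the window at 57.6 Mb with PMEPA1, whose product restrains TGF-beta signalling, with 121, 127, 121 and 119 peaks. The window at 57.4 Mb, with PCK1 of gluconeogenesis and CTCFL, held 119, 133, 111 and 111 peaks, and the window at 56.6 Mb, with TFAP2C, held 117, 136, 113 and 108 peaks. The fifth, at 50 Mb with CEBPB, which encodes a bZIP transcription factor of inflammation and mammary differentiation, held 114, 129, 115 and 100 peaks.

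Of the 5 emptiest windows, 4 held no protein-coding gene start. The window at 55.2 Mb had 3, 4, 4 and 3 peaks, none of them above the 50th rank percentile of its list. Those at 55, 55.8 and 55.6 Mb had between 5 and 22 peaks in each list. The window at 59.2 Mb, with the endothelin gene EDN3, had 8, 12, 8 and 5 peaks.

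A window was called dense when it held at least 3 times the genome median in every list, and 33 of the 50 windows did. They fell into 3 runs. The run that holds ZNF217 extended from 52.8 to 54.8 Mb, from TSHZ2 past DOK5, and held 814, 828, 770 and 648 peaks in 1165 sites. A second run, from 56.2 to 59.0 Mb, held AURKA, TFAP2C, BMP7, PMEPA1 and GNAS in 1753 sites. The third, with CEBPB, PTPN1 and NFATC2, ended at 51.8 Mb but began at 45.8 Mb, outside the block, with 28 of its 30 windows dense. The left limit of the block was therefore no edge of density. The last window before it held 109, 112, 117 and 93 peaks and the first window inside it held 114, 129, 115 and 100. At the right limit both neighbouring windows were sparse, with 21, 28, 22 and 24 peaks inside and 10, 14, 13 and 8 outside.

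Between the runs lay sparse stretches. The stretch from 51.8 to 52.8 Mb, with the zinc finger genes SALL4 and ZFP64, held 23.2 to 34.4 peaks per 200 kb. The stretch from 54.8 to 56.2 Mb, where CBLN4 was the only protein-coding gene start, held 10.0 to 18.7. The last stretch, from 59.0 Mb to the limit of the block, held 16.6 to 23.4, although it has 11 gene starts. Of its peaks 42.2% to 49.4% lay above the 50th rank percentile of their list, against 20.8% to 25.7% in the CBLN4 stretch.

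Edges of density were located by comparing the 400 kb on either side of each position. The steepest edge was a fall at 59.10 Mb, beside ZNF831, where untreated 1, untreated 2, TWEAK 1 and TWEAK 2 had 142, 151, 128 and 110 peaks on the left and 15, 28, 19 and 15 on the right, a mean log2 ratio of -2.76. The steepest rise was at 56.14 Mb, left of the melanocortin receptor gene MC3R, with 22, 37, 25 and 18 peaks on its left and log2 ratios of right to left of 2.44, 1.87, 2.04 and 2.42 (mean 2.19). Density also rose at 52.72 Mb, before TSHZ2 (1.44), and at 55.40 Mb (1.37). It fell at 55 Mb, beyond DOK5 (-2.17), and at 60.34 Mb, past the block (-2.64). Each of the 6 edges had the same direction in all 4 lists.

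The peaks of the block were mostly weak, with an excess of very strong ones. Peaks were ranked within their own list by the deposited value, read here as a -log10 p-value. Those above the 50th percentile were called strong and the rest weak. Strong peaks made up 34.4%, 34.5%, 37.8% and 38.3% of those in the block in untreated 1, untreated 2, TWEAK 1 and TWEAK 2, where a stretch like its list would have 50%. The lowest 25% of the ranks held 42.1%, 40.1%, 37.2% and 39.1% of them. At the other end, the top 1% of ranks held 2.59%, 2.31%, 2.73% and 3.05% of the block's peaks, 78 to 82 peaks in each list. Pileup, the number of reads over a peak, had a median of 5.02 to 7.58 times the list's background in the block and of 7.53 to 10.8 times over the lists.

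**Figure D2:**
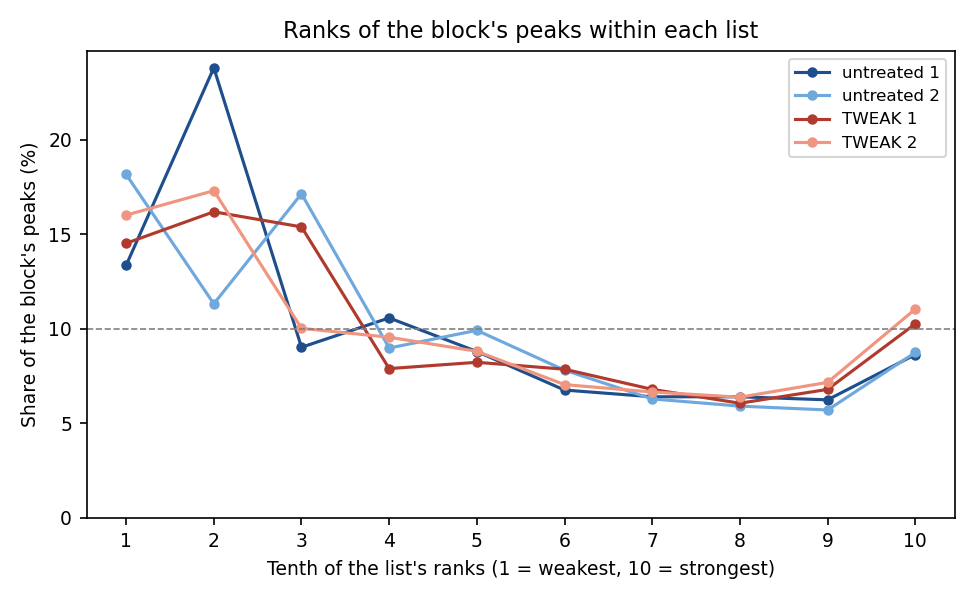
Share of the block's peaks, in percent (y axis), in each 10% of the ranks of its own list, from the weakest to the strongest (x axis), for the 4 libraries. The dashed line at 10% is what a stretch like its list would show. The lowest ranks lie above it, the middle to upper ranks below it, and the top 10% lies near it at 8.64% to 11.04%. Weak peaks share few distinct values, and the lowest ranks are uneven.

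Few of the sites were promoters. Only 117 of the 4599 sites (2.54%) touched the 1 kb on either side of a protein-coding gene start, against 7.86% of all sites. Sites between genes made up 63.6% in the block and 41.9% over all sites. Sites of the block and all sites had the same median GC content of 49.3% in the 201 bases around the best peak. Of the sites whose best peak lay above the 90th percentile, 9.57% were promoters in the block and 27.9% over all sites. Their median GC content was 51.7% in the block and 56.2% over all sites.

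The 5 strongest distal sites found in all 4 lists are given with their nearest genes. The strongest, chr20:54123525-54124067, was an intergenic site between BCAS1, a gene first described as amplified in breast carcinoma, and CYP24A1, and lay 50190 bp from the CYP24A1 start. Its pileup was 484, 558, 555 and 568 times background in untreated 1, untreated 2, TWEAK 1 and TWEAK 2, the highest peak of the block in every list. Its printed sequence holds no match to the 6 motifs searched. The second, chr20:54267378-54267928, lay 59566 bp from the start of PFDN4, a prefoldin chaperone subunit gene, with a pileup of 319, 380, 374 and 408 times background. It holds 1 AP-1 and 2 TFAP2 matches, printed above in capitals. The others lay in introns of PMEPA1, chr20:57692971-57693497, of RIPOR3, chr20:50624547-50625057, and of BCAS1, chr20:54067546-54068060, with 288 to 405 times background. All 5 had a rank percentile of at least 99.9 in each list, and the pileups of the groups overlapped at 4 of them. At the PMEPA1 intron both TWEAK pileups were higher, at 339 and 349 against 288 and 332, while its ranks overlapped between the groups.

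The next question was which gene starts of the block were accessible. Of 63 protein-coding gene starts, 50 had a peak within 1 kb in all 4 lists (79.4%), against 68.0% of all protein-coding starts, and 7 had none in any list. The block was selected on its peak density, and a peak of any rank counted, so this share cannot be told apart from that density. All 48 genes listed by role lay in the block. Of these, 38 had a promoter peak in all 4 lists and 6 had none in any list.

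The genes most often discussed with the 20q13 gain were all accessible, 14 of 14 in all 4 lists, beside 79.4% of the block's gene starts. The highest was the peak shared by AURKA and CSTF1, a polyadenylation factor gene that starts next to it on the other strand, at 221, 258, 239 and 256 times background. BCAS1 had a rank percentile of 99.7 to 99.8 in every list. PTPN1, a tyrosine phosphatase of insulin and growth factor receptors, lay at 98.9 to 99.3, VAPB, an endoplasmic reticulum tether, at 99.5 to 99.7, and PFDN4 at 99.2 to 99.6. RAE1 of mRNA export lay at 94.2 to 96.7 and RBM38, an RNA-binding target of p53, at 95.6 to 96.0. Weaker were GNAS, the stimulatory G protein subunit, at 82.0 to 87.1, and CYP24A1, at 64.1 to 78.7.

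For ZNF217 itself the call depended on which start was used. At the annotated gene start, 53609907 on the minus strand, the peak had rank percentiles of 70.4 and 80.4 in the untreated lists and 58.1 and 64.1 in the TWEAK lists, so that both TWEAK ranks lay lower. The pileup there was 14.5 and 24.6 times background in untreated and 11.01 and 16.8 in TWEAK libraries, which overlapped. At the RefSeq start, 16068 bp inside the gene and within the promoter printed above, the percentiles were 96.8 and 97.3 in the untreated lists and 97.3 and 96.3 in the TWEAK lists. The groups overlapped there, and the pileup was 74.99, 91.7, 88.9 and 87.2 times background. Within 100 kb of the gene start lay 163 sites, the most of any of the 63 genes, of which 79 were in all 4 lists.

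Of the transcription factor genes 7 of 10 were accessible in all 4 lists, beside 79.4% of the block's gene starts. TFAP2C was at percentile 99.6 to 99.7 and CEBPB at 95.7 to 97.4. ADNP, a homeobox and zinc finger gene of chromatin remodelling, lay at 95.8 and 95.0 in untreated lists and 92.9 and 92.4 in TWEAK lists. NFATC2, a calcineurin-regulated factor, went from 70.4 and 69.3 to 63.8 and 56.0. SALL4, a stem cell factor, was weak, at 30.3 and 22.8 in untreated lists and 38.1 and 31.2 in TWEAK lists. ZNF831 had no promoter peak, and CTCFL, the germline paralogue of CTCF, had one in 2 lists only at its annotated start. At RefSeq starts 512 and 955 bp away CTCFL had peaks at percentiles 10.3 and 22.8 in untreated lists and 11.2 in TWEAK 1. ZFP64 had none at its annotated start but a peak at percentile 86.2 to 89.6 in all 4 lists at its RefSeq start, 12529 bp away.

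Of the signalling and adhesion genes 7 of 12 had a peak in all 4 lists, beside 79.4% of the block's gene starts. PARD6B, a polarity gene, lay at 97.9 to 99.2 and BMP7, a secreted ligand of the TGF-beta family, at 92.5 to 96.7. MC3R had a strong peak at 95.03 to 96.6. CBLN4, EDN3, PHACTR3 and the cadherin gene CDH26 had none at their start in any list. The housekeeping, transport and metabolism genes were accessible in 14 of 15, with ATP9A, a phospholipid flippase gene, at 99.1 to 99.4 and the mitochondrial gene FAM210B at 99.3 to 99.5. In the cell division and RNA group 7 of 8 were, with RTF2 of replication termination at 99.8 in every list. The exception, SPO11, which cuts DNA in meiosis, had percentiles of 30.3 and 43.8 in untreated lists, 6.62 in TWEAK 1 and no peak in TWEAK 2.

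**Figure D3:**
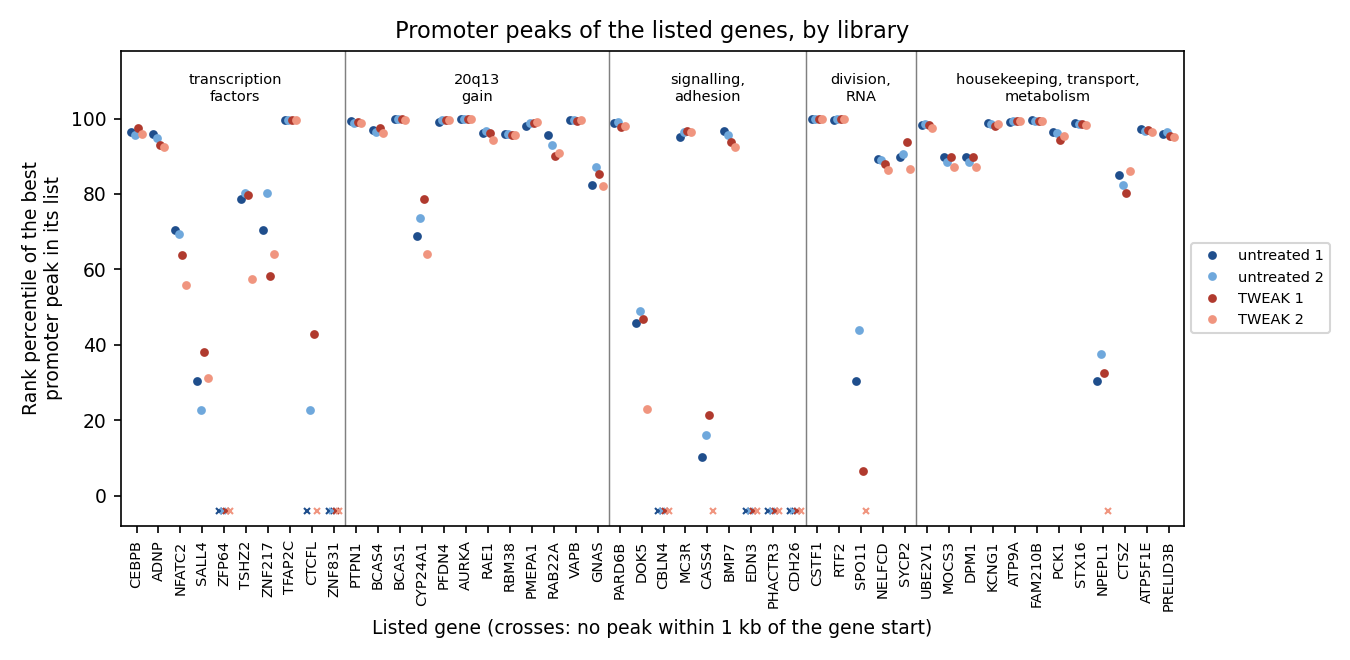
Rank percentile, within its list, of the best peak within 1 kb of the start of each of the 48 listed genes (y axis), for the 4 libraries, with genes grouped by role and ordered along the chromosome (x axis). A gene of more than 1 role is drawn once. Most genes sit above 80 with the 4 points close together, while crosses mark lists without a peak.

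Markers of the cell line, none of which lie in the block, were read as a check of its label. Promoters of 8 of 9 luminal and HER2 genes had a peak in all 4 lists, ERBB2 among them at 520 to 585 times background, and GATA3 had weak peaks in 3. Of 8 genes of other cells, 2 had a peak in all 4 lists (VIM and KRT5, at 5.02 to 11.01 times background), 1 had one in 1 list (COL1A1) and 5 had none.

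The comparison of treatments asked whether TWEAK changed the block's part of the accessible sites. The block held 1.48% and 1.49% of the peaks in the untreated lists (mean 1.49 ± 0.00757, SD, n = 2) and 1.37% and 1.31% in the TWEAK lists (mean 1.34 ± 0.0476, SD, n = 2). The TWEAK values were lower without overlap, by 0.148 percentage points (exact permutation test, two-sided, p = 0.333). This is the smallest p that 2 against 2 libraries allow, so no test here could pass 0.05. Relative to the untreated mean the share dropped by 9.95%. Of 294 tiles of 10 Mb with at least 100 peaks in every list, 16.7% were lower in both TWEAK lists. Another 161 of the 294 were higher in both TWEAK lists, and the median change over the 294 tiles was 3.998%. The block ranked 10 from the largest decrease. Among the 10 tiles with the most peaks, 8 were lower and 0 higher in both TWEAK lists.

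The difference lay in the weak peaks. Of all weak peaks of a list, the block held 1.96% in both untreated lists and 1.73% and 1.60% in the TWEAK lists (exact permutation p = 0.333). Of all strong peaks, it held 1.02% and 1.03% in untreated lists and 1.03% and 1.01% in TWEAK lists, which overlapped (difference -0.00473 points, exact permutation p = 0.667). The share of the block's own peaks that were strong was 34.5% ± 0.0148 (SD, n = 2) in untreated and 38.03% ± 0.366 (SD, n = 2) in TWEAK lists, a difference of 3.58 points (exact permutation p = 0.333). Of the tiles, 20.1% were higher in both TWEAK lists for that share, and the block ranked 7.

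**Figure D4:**
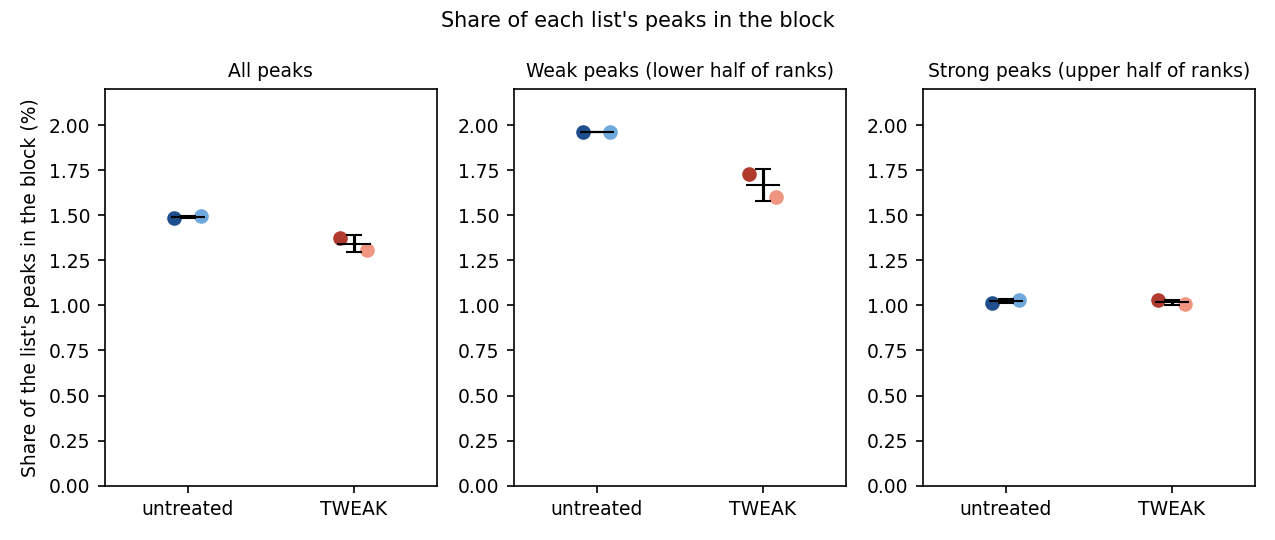
Share of a list's peaks that lay in the block, in percent (y axis), for all peaks, for weak peaks and for strong peaks (panels). Points are libraries, and black bars are the mean and SD of the 2 libraries of a group. The TWEAK libraries lie lower among all peaks and weak peaks and overlap the untreated libraries among strong peaks.

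Depth and threshold differed between the libraries, and overlapped between the groups. The background pileup was 3.59 and 2.24 in the untreated lists and 2.63 and 1.85 in the TWEAK lists, and the weakest peak of a list had 2.79, 3.13, 3.04 and 3.79 times that background, in the order untreated 1, untreated 2, TWEAK 1, TWEAK 2. The median pileup over a list did not overlap, at 7.53 and 8.05 times background in untreated and 8.74 and 10.8 in TWEAK lists. The part of depth, threshold and median pileup in the difference in share was not tested. When only peaks with a pileup of at least 5 times background were kept, the shares were 1.11% and 1.16% in untreated lists and 1.09% and 1.16% in TWEAK lists. The groups then overlapped and differed by -0.00757 points (exact permutation p = 0.667). The difference in strong peaks fell to 0.237 points under the same limit, a setting added for this measure after the data were seen. With the same number of top-ranked peaks from every list, also added then, the share still differed by -0.103 points without overlap. With a deposited value of at least 5 it differed by -0.0623 points, also without overlap.

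The lower share was not particular to the block, since the neighbouring tiles of chromosome 20 were also lower in both TWEAK lists, with a change of -10.9% from 40 to 50 Mb and of -9.71% from 60 Mb on. Within the block it was seen in many windows. Of 47 windows with a mean of at least 10 peaks, 25 (53.2%) had a lower share of the list in both TWEAK lists and 0 a higher one, where over the genome 21.6% were lower and 26% were higher. The window of TFAP2C, with 117 and 136 peaks against 113 and 108, was among the lower ones. The windows that hold the starts of ZNF217, PMEPA1 and BCAS1 were not. This too was lost with a pileup of at least 5 times background, when 9 of 43 windows were lower (20.9%, against 27.0% over the genome) and 9 were higher. With a deposited value of at least 5, 16 of 43 windows were lower (37.2%, against 23.1% over the genome) and 8 higher. With the same number of top-ranked peaks 15 of 45 were lower and 1 higher, beside 17.7% and 20.2% over the genome.

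Gained and lost sites were counted next, as a description with no test of the difference from other sites. Gained here means a peak in each TWEAK list and none in the untreated lists, and lost means the reverse. There were 87 gained sites (1.89%, where 3.6% of all sites were gained) and 224 lost sites (4.87%, where 3.79% of all sites were lost). The other pairs of lists shared 63 to 169 sites that way, with 169 for untreated 2 and TWEAK 1. Sites in all 4 lists numbered 1598 (34.7%, against 42.8% over all sites) and sites in a single list 1553 (33.8%, against 29.2%). With a pileup of at least 5 times background the order turned, with 116 gained (4.63%, against 5.90% of all sites) and 61 lost sites (2.43%, against 2.33%). With a deposited value of at least 5 there were 84 gained (3.19%, against 4.82%) and 100 lost sites (3.802%, against 3.36%). Leaving out a library, when fewer lists define a site, gave 217 to 457 gained and 385 to 899 lost among 4094 to 4507 sites. The shares over all sites were not computed there, so these counts have no background. Gained sites outnumbered lost ones without TWEAK replicate 2.

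**Figure D5:**
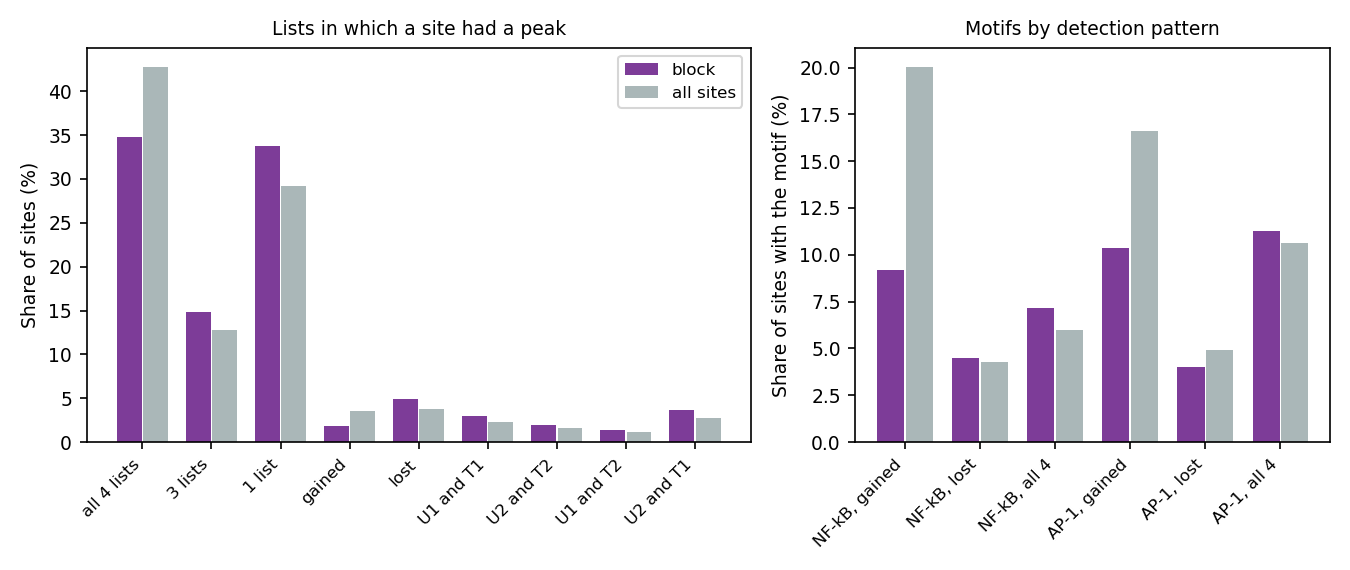
Left, share of sites in percent (y axis) by the lists in which they had a peak (x axis), for the block and for all sites, where U1, U2, T1 and T2 are the untreated and TWEAK replicates. Right, share of sites in percent with an NF-kB or AP-1 match within 100 bp of the best peak, by pattern. Gained sites of the block held NF-kB matches in 9.20%, against 20.1% of all gained sites.

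Most of the gained and lost sites were weak. Only 5 of 87 gained sites were strong in both lists, 5.75% against 16.4% of all gained sites. Among lost sites 6 of 224 did, 2.68% against 5.53% of all lost sites. At gene starts lay 2 of 87 gained and 6 of 224 lost sites, beside 117 of all 4599 sites of the block (2.54%). Over the genome, 515 of 11080 gained and 493 of 11664 lost sites lay at gene starts. In the run that holds ZNF217, 28 of 1165 sites were gained and 53 lost. In the run of AURKA to GNAS 28 of 1753 were gained and 91 lost, beside 87 and 224 of the 4599 sites of the block.

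Matches to NF-kB and AP-1 were counted in the gained and lost sites. An NF-kB match lay within 100 bp of the best peak in 8 of 87 gained sites of the block (9.20%), against 20.1% of all gained sites. AP-1 was matched in 9 of them (10.3%), against 16.6% of all gained sites. In lost sites of the block NF-kB reached 4.46% and AP-1 4.02%, close to the 4.28% and 4.90% of all lost sites. Sites of the block in all 4 lists held NF-kB in 7.13% and AP-1 in 11.3%, beside 5.96% and 10.6% over all such sites. These shares are descriptions, and no test of the difference was run.

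The gained and lost sites named here lay beside peaks of the other treatment. Of the 3 strongest gained sites 1 was in an intron of ADNP, chr20:50928318-50928828, at percentiles 68.8 and 63.2 in TWEAK 1 and 2. Another was in an intron of TSHZ2, chr20:53336050-53336563, at 68.2 and 63.2, and the last was intergenic, chr20:57996391-57996939, at 63.0 and 59.8. The nearest peak of an untreated list lay 160 to 456 bp from each. Of the lost sites described here 1 was at the ADNP promoter, chr20:50930589-50931310, at 72.6 and 66.9 in untreated 1 and 2. Another was in an exon of CTSZ, a cathepsin gene, chr20:59003954-59004532, at 60.2 and 72.0. The nearest TWEAK peak lay 43 and 308 bp from them. At ADNP a lost and a gained site thus lay close together, and the promoter as a whole had a peak in all 4 lists.

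The values at 2 starts inside genes are given as a description, since they were picked for their difference. At the second RefSeq start of CDH26, 59996374, no untreated list had a peak, while TWEAK 1 and 2 had peaks at percentiles 29.2 and 31.2 and 5.32 and 7.04 times background. This is the gained site with an AP-1 and an NF-kB match printed above. At the RefSeq start of GNAS at 58841620, 1902 bp from the annotated gene start, the percentiles were 52.96 and 54.8 in untreated lists and 16.4 and 23.03 in TWEAK lists, while the groups overlapped at the annotated start.

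Ranks were compared at sites present in all 4 lists, with no test of the difference from other sites. Of the 1598 such sites, 579 (36.2%) ranked lower in both TWEAK lists, where 35.4% of all such sites did, and 331 (20.7%) ranked higher, where 15.8% did. The median difference was -1.21 percentile points, beside -1.75 over all such sites. Of the 50 gene starts with a peak in all 4 lists, 19 ranked lower and 5 higher in both TWEAK lists, while 36.5% and 7.57% of all such starts did. For the listed genes this was 17 lower, 2 higher and 19 overlapping of 38. Starts that share a peak were counted separately, such as AURKA and CSTF1 among the lower. Among the higher of the 50, PEDS1 and PEDS1-UBE2V1 share a peak. The listed genes that ranked higher were SALL4 and PMEPA1, the second at 98.02 and 98.7 in untreated and 98.9 and 99.1 in TWEAK lists. The direction of PMEPA1 held at that start, while at its RefSeq starts 57710015 and 57710577 the groups overlapped and at 57690686 both TWEAK values were lower. Among those lower, NFATC2 fell by 9.97 percentile points and ZNF217 fell by 14.2, both in ranks at the annotated start, while the pileup of ZNF217 overlapped there and the ranks of both genes overlapped at the RefSeq start inside the gene. RAB22A, a small GTPase of endosomes, went from 95.6 and 93.0 to 90.2 and 90.9. BMP7 went from 96.7 and 95.7 to 93.8 and 92.5.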

How the data were processed

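ATAC-seq peak lists of 2 untreated and 2 TWEAK-treated SKBR3 libraries were analysed, grouped by their titles. Upstream, the authors trimmed adaptors (Trimmomatic), aligned to hg38 (Bowtie2), took out mitochondrial reads (Bamtools) and duplicates (Picard), and called peaks (MACS2), and 1 list per library was deposited. Versions, settings, and any shift for the transposase are not given in the sources used here. Every deposited peak was 501 bp wide and carries a value read here as the -log10 of an uncorrected p-value by the authors' peak caller. All values fitted the Poisson upper tail of a whole-number pileup against 1 background per list, from which pileups were recovered. The lists held 208407, 228734, 218423 and 195388 peaks. Read depth per library is unknown beyond that background, so no counting interval is given.

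Peaks on chromosomes 1 to 22 and X were ranked within their list. Sequence names (55 of 55) and ends were compared with hg38, and 0 peaks lay past an end. Genes were GENCODE release 44 protein-coding genes, with promoters within 1 kb of the gene start. RefSeq promoter entries gave further starts for some genes. Motifs for AP-1 and NF-kB were planned, and TFAP2, GRHL, FOXA and CTCF were added after the data were seen. DiffBind, used by the study, needs reads and was not run. Groups of libraries were compared by exact permutation, two-sided. The block, lists and tests were chosen with earlier results of these data known. Named genes were those of 5 role lists. Named sites were the 3 gained, 3 lost and 5 shared distal sites with the highest lowest percentile, and named windows the 5 densest and 5 emptiest. Of these sites, the lost site that ranked highest is not reported here. Scripts used Python 3.11.15, numpy 2.4.6, pandas 2.3.3, scipy 1.17.1 and matplotlib 3.10.9, and were tested on simulated data. Alternatives are given in the closing section.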

Additional observations from a re-analysis of the deposited data

How the results depend on the processing

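The share of peaks in the block stayed lower, and the share of strong peaks higher, with TWEAK under every alternative run, though with a pileup of at least 5 times background both differences were near 0. Leaving out a library gave -0.182 to -0.115 points for the first and 3.32 to 3.84 points for the second. Replicate numbers paired the libraries by number only, since deviations of same-numbered libraries correlated at -0.0286 over 6702 windows. With the replicate number as a block the differences of -0.148 and 3.58 points had a sign-flip p of 0.5, the smallest that 2 pairs allow in this exact test. The number of lost sites moved from 224 to 100 with a deposited value of at least 5. It moved to 61 with a pileup of at least 5 times background. Gained sites rose from 87 to 133 when an overlap of at least 250 bp was required. These were 2.39% of the 5570 sites of the block so formed, against 3.76% of all sites. Leaving out a library gave 217 to 457 gained and 385 to 899 lost among 4094 to 4507 sites, since fewer lists then define a site. Shares over all sites were not computed for these settings. The relative density of 6.05, a mean over lists, fell to 4.08 and 4.04 under those limits on value and pileup. The run that holds ZNF217 was 2 Mb long, 1.6 Mb under either limit or when dense meant 5 times the median, 9.6 Mb at 2 times and 9 Mb with windows of 500 kb, where it joined the run on its left. It was 2 to 2.2 Mb when a library was left out. Alternatives with the same number of top-ranked peaks, or with any transcript start, were chosen after seeing the data. The count of 38 listed genes with a promoter peak ranged from 37 to 43 over the alternatives, and sites in all lists from 1161 to 1872. Depth differed between the libraries and was not tested as a cause.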
